A study of Homo sapiens with 4 samples.

Results

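The E2F transcription factor family and a pair of its partners in cell cycle control, the pocket protein gene RBL1 and the B-MYB gene MYBL2, were followed in HCT116 cells, an established human colon cancer line, after 24 h with N_12 or with DMSO. The genes were E2F1 to E2F8, RBL1 and MYBL2, found by symbol, and all 10 were present among the 20263 genes listed. The N_12 group (2 libraries) received a compound known here by a code name, which the series title calls a derivative of the kinase inhibitor nilotinib. The treatment tag of these libraries carries a different code, HJJ_3_5, and no dose is given. The DMSO group (2 libraries) received the solvent, and both groups were of the same line, grown in medium with 10% serum. Whether the replicates came from separate cultures is not stated, so p-values measure only the spread between these libraries, which may be technical.

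E2F proteins bind DNA upstream of genes for S phase entry and DNA replication. E2F1, E2F2 and E2F3 are activators that the retinoblastoma protein holds in check. E2F4 and E2F5 act mostly as repressors, together with the pocket proteins encoded by RBL1 and RBL2, whereas E2F6, E2F7 and E2F8 repress without pocket proteins. MYBL2 encodes B-MYB, which joins the MuvB complex in proliferating cells and turns on genes of G2 and mitosis. Several of these genes are themselves E2F targets, so the family is wired back onto itself.

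The promoter letters are shown as a description, and their relation to the changes of these genes was not tested. The letters come from RefSeq promoter windows (250 bases before to 50 after the annotated start, GRCh38.p14), which covered 8 of the 10 genes. E2F5 and E2F8 had no window, and the stretches of E2F6 and E2F7 are not printed. Capitals mark matches, on either strand, to TTTCCCGC, TTTCGCGC, TTTGCCGC or TTTGGCGC, the E2F consensus in full, or to its shorter form GGCGGGA, which overlaps the reverse of the first of these. Each line gives the 100 bases just before the start, 5′ to 3′ on the strand of the gene.
E2F1: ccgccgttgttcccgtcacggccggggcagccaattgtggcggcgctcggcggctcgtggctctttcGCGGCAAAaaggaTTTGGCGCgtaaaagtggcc
E2F2: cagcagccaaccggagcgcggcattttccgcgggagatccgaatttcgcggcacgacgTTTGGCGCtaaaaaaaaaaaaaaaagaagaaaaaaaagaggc
E2F3: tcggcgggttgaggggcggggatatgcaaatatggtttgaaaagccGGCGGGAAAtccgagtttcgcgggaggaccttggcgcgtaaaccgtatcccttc
RBL1: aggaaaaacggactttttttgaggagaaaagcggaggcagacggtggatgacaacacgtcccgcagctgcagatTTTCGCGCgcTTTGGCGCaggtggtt
MYBL2: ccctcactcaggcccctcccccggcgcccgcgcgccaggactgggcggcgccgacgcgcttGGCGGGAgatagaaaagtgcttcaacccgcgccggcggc
E2F4: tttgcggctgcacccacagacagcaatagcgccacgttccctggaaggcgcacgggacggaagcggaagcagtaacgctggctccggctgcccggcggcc
These stretches lie at chr20:33686386-33686485 (minus strand) for E2F1, chr1:23531234-23531333 (minus) for E2F2, chr6:20401779-20401878 (plus) for the first of the E2F3 windows, chr20:37095998-37096097 (minus) for RBL1, chr20:43667014-43667113 (plus) for MYBL2 and chr16:67192055-67192154 (plus) for E2F4. E2F1 and RBL1 each held a pair of full matches within the 33 bases before the start. E2F4, E2F6 and E2F7 held neither form in the whole window. Of the 8 first-listed windows, 4 held the full consensus, against 5.24% of the 11149 windows of tested genes. A match in letters is not a measured binding site, and the start used in these cells is not known.

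Among the 10 genes, E2F1 and MYBL2 rose with N_12 and none fell by the test over all genes. E2F1 was 1.93-fold and MYBL2 1.69-fold higher. The other 8 genes were not called, and among them E2F5 was the 1 gene of the 10 that lay lower. Counts were tested with edgeR's quasi-likelihood test at a Benjamini-Hochberg adjusted p of 0.05 over 14105 genes, of which 0.822% were called higher, 1.43% lower and 2.25% in all. All 10 genes passed the filter on low counts, with at least 286 counts in every library. Their median log2 fold change was 0.41, against 0.0091 for all tested genes, and 9 of 10 lay above 0, as did 51% of all tested genes. At an unadjusted p under 0.05 edgeR passed 6 of the 10, against 21.8% of all. DESeq2 called 3 of the 10 higher (E2F1, MYBL2 and E2F4), against 3.91% of all, and 1 lower (E2F5), against 4.78%.

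**Figure D1:**
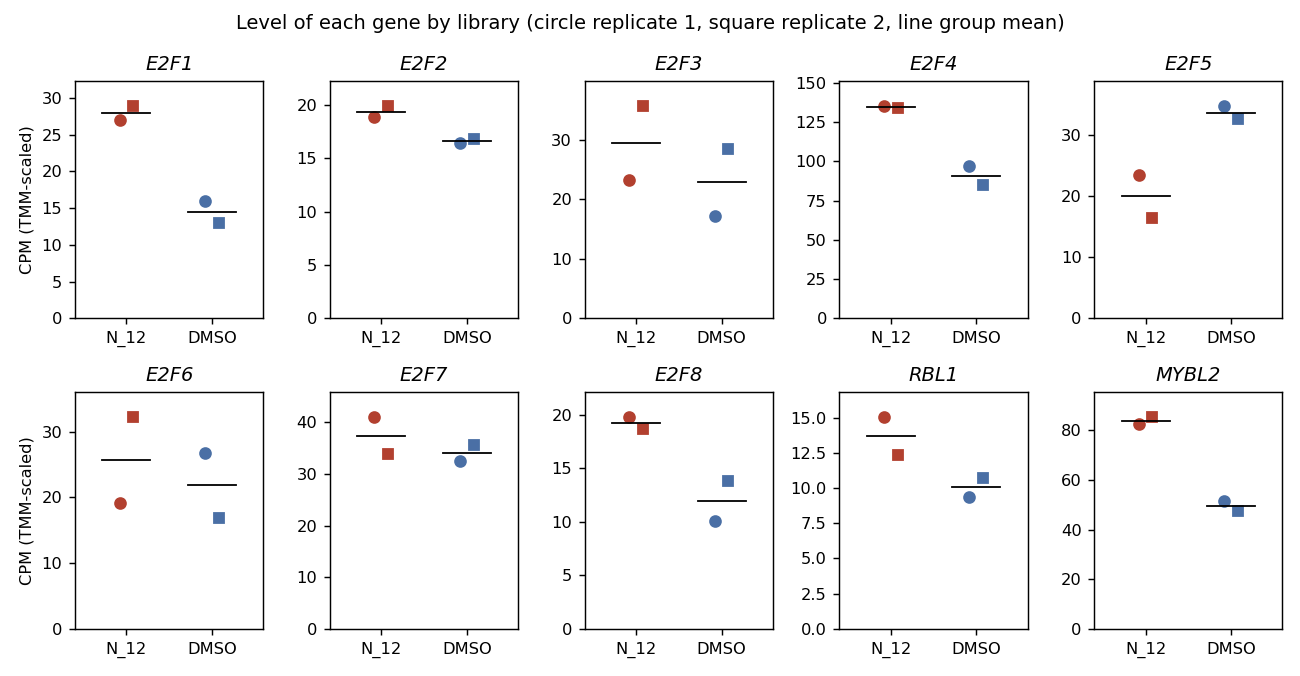
CPM (counts scaled to the library total with TMM factors) of each gene in the 2 N_12 libraries and the 2 DMSO libraries, with circles for replicate 1, squares for replicate 2 and lines for group means. The groups are apart for E2F1, E2F2, E2F4, E2F5, E2F8, RBL1 and MYBL2 and overlap for E2F3, E2F6 and E2F7.

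Of the activators, E2F1, which drives S phase entry and can also induce apoptosis genes, had 27.0 and 28.9 CPM in the N_12 libraries, against 15.9 and 13.0 CPM in the DMSO libraries. The N_12 libraries stood close together and well above both DMSO libraries. The log2 fold change of E2F1 was 0.95 (SE 0.17, 95% interval 0.55 to 1.35, adjusted p = 0.0390 by edgeR). The call ended when any 1 library was left out (adjusted p from 0.0515 to 0.174 by edgeR) and with limma-voom (adjusted p = 0.0660), whereas the log2 fold change stayed between 0.81 and 1.11 under all 15 alternatives. E2F2, an activator that shares most of its targets with E2F1, had 18.9 and 19.9 CPM in N_12 libraries and 16.4 and 16.8 CPM in DMSO libraries. Its groups did not overlap, but the distance was short (log2 fold change 0.22, interval -0.15 to 0.59, adjusted p = 0.454 by edgeR). E2F3, the third activator, had 23.2 and 35.6 CPM with N_12 and 17.2 and 28.4 CPM with DMSO. Replicate 2 of E2F3 was the higher library in both groups, and the groups overlapped. Its replicates differed by 0.62 (N_12) and 0.72 (DMSO) on the log2 scale, more than its log2 fold change of 0.36 (interval -0.43 to 1.16, adjusted p = 0.552 by edgeR). For comparison, the median difference between replicates over all tested genes was 0.22 for N_12 and 0.17 for DMSO.

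The pocket-protein-bound repressors lay on opposite sides of 0. E2F4, the E2F of quiescent and early G1 cells, had 135.1 and 134.4 CPM in N_12 libraries, against 96.9 and 84.8 CPM in DMSO libraries. Both N_12 libraries were above both DMSO libraries. Its log2 fold change of 0.57 (interval 0.25 to 0.88) was not called by edgeR (adjusted p = 0.0750), while DESeq2 called it (adjusted p = 0.00807). E2F5, the closest relative of E2F4, had 23.5 and 16.4 CPM in N_12 libraries, against 34.6 and 32.6 CPM in DMSO libraries. Its N_12 libraries differed more from each other than its DMSO libraries did, and both stood below DMSO. The log2 fold change of E2F5 was -0.75 (SE 0.20, interval -1.22 to -0.29, adjusted p = 0.0927 by edgeR). It was called lower by DESeq2 (adjusted p = 0.0185) and by edgeR with a term for the replicate number (adjusted p = 0.0142). Without N_12 replicate 1 the value was -1.05, and without N_12 replicate 2 it was -0.52. The strand setting of the counting is not given, and 1102 of the 5928 exon bases of E2F5 lie opposite exons of other genes, among them RBIS. RBIS, a ribosome biogenesis factor gene, had 56.5 and 47.0 CPM with N_12 and 62.7 and 60.4 CPM with DMSO (log2 fold change -0.25, interval -0.62 to 0.11). After GC and length correction RBIS stood at -0.094 and E2F5 at -0.75, and the part of RBIS in the E2F5 counts was not tested. Of the other genes, RBL1 had 211 and E2F8 7 exon bases opposite another gene, and the rest none.

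E2F5 was lower relative to E2F4 in both N_12 libraries than in either DMSO library. The log2 ratio of E2F5 to E2F4 CPM was -2.52 and -3.03 in N_12 libraries, against -1.48 and -1.38 in DMSO libraries, a change of -1.35. No p is given for this ratio because it was picked after the values were seen, and 2 libraries against 2 cannot give an exact two-sided permutation p below 0.333.

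E2F6 represses meiotic and germline genes in proliferating somatic cells as part of a variant Polycomb complex. It had 19.2 and 32.2 CPM with N_12 and 26.8 and 16.9 CPM with DMSO. The groups overlapped, and its replicates were apart by 0.75 (N_12) and 0.66 (DMSO) on the log2 scale, further than those of 93.2% and 91.2% of tested genes. Its log2 fold change was 0.24 with an interval of -0.62 to 1.09.

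E2F7 and E2F8 are the atypical E2Fs, which bind DNA without a DP partner and switch off E2F targets, E2F1 included, late in S phase. E2F7 had 41.0 and 33.8 CPM in N_12 libraries and 32.6 and 35.6 CPM in DMSO libraries, and the groups overlapped (log2 fold change 0.13, interval -0.25 to 0.52). E2F8 had 19.8 and 18.6 CPM in N_12 libraries, against 10.1 and 13.8 CPM in DMSO libraries. Both N_12 libraries of E2F8 were above both DMSO libraries, whose spread was the wider. Its log2 fold change was 0.69 (SE 0.20, interval 0.22 to 1.15, adjusted p = 0.112 by edgeR), and neither DESeq2 (adjusted p = 0.0535) nor any other alternative called it. The log2 ratio of E2F8 to E2F7 was -1.05 and -0.86 in N_12 libraries, against -1.69 and -1.37 in DMSO libraries.

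RBL1 encodes p107, the pocket protein that is itself made in cycling cells and binds E2F4. It had 15.0 and 12.4 CPM in N_12 libraries, against 9.38 and 10.7 CPM in DMSO libraries. The groups were apart, and the interval of its log2 fold change, 0.45, reached nearly to 0 (0.0018 to 0.89, adjusted p = 0.228 by edgeR). MYBL2 had 82.7 and 85.4 CPM in N_12 libraries, against 51.8 and 47.7 CPM in DMSO libraries. The replicates of MYBL2 lay close to each other in both groups, and the groups were far apart. Its log2 fold change was 0.76 (SE 0.14, interval 0.43 to 1.09, adjusted p = 0.0413 by edgeR). As for E2F1, the call ended when any 1 library was left out (adjusted p from 0.0975 to 0.158 by edgeR) and with limma-voom (adjusted p = 0.0660), and the log2 fold change stayed between 0.70 and 0.82 under all 15 alternatives.

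**Figure D2:**
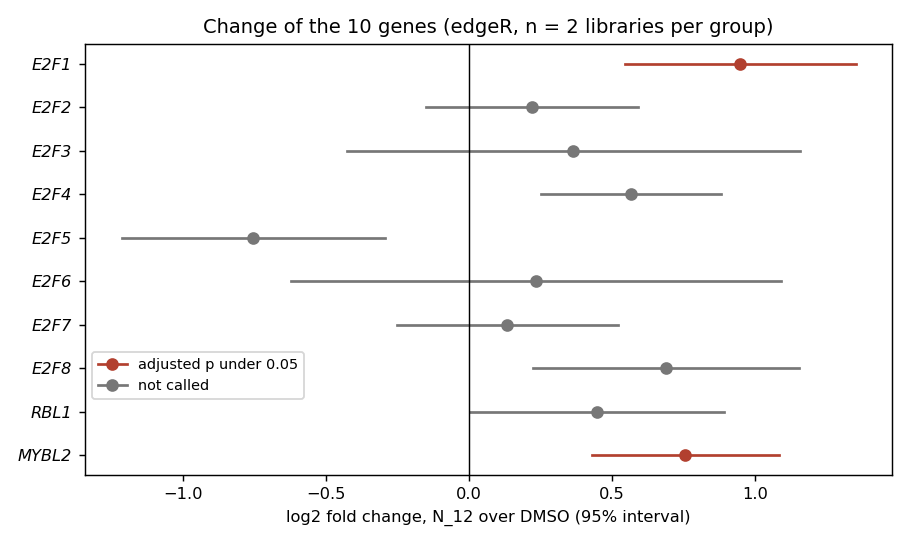
Log2 fold change, N_12 over DMSO, of each gene with its 95% interval from edgeR. E2F1 (0.95) and MYBL2 (0.76) are called, and E2F5 (-0.75) is the gene on the lower side.

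Both N_12 libraries stood above both DMSO libraries for 6 of the 10 genes and below for 1, while over all tested genes this held for 27.9% and 26.8%. Transcripts of E2F1, MYBL2, E2F4 and E2F2 were rich in G and C (57.5% to 62.5%), and that of E2F5 had the lowest share (38.3%). After a correction for GC content and length the log2 fold changes of E2F1, MYBL2, E2F4 and E2F5 were 0.96, 0.77, 0.58 and -0.75. All 4 were then called (adjusted p from 0.0264 to 0.0415 by edgeR), under a setting that called 2.97% of all genes higher and 3.58% lower.

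**Figure D3:**
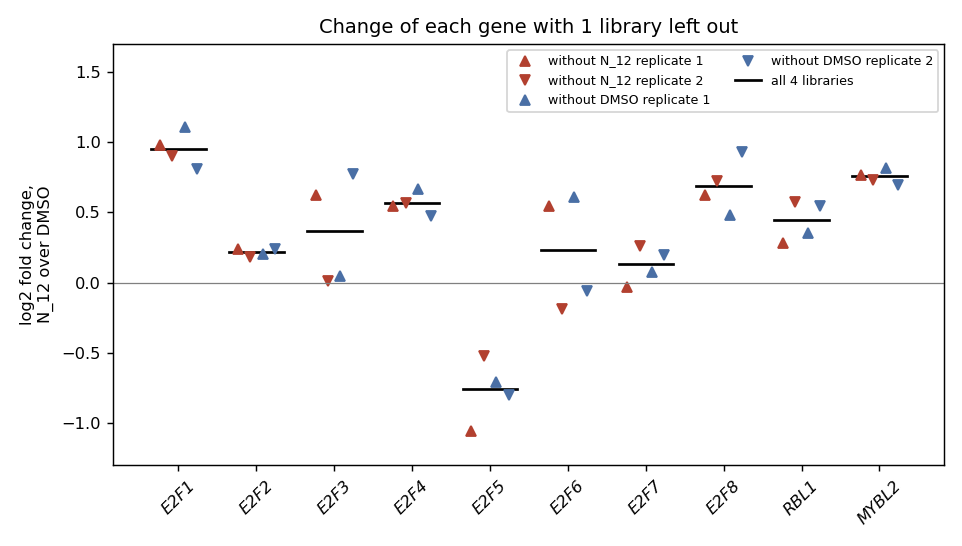
Log2 fold change of each gene in all 4 libraries (line) and with 1 library left out (triangles, coloured by the group of the library left out). E2F4, MYBL2 and E2F2 keep closest to their lines. E2F1 spreads from 0.81 to 1.11, E2F3 from 0.015 to 0.77 and E2F6 from -0.19 to 0.61.

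The activators (E2F1 to E2F3) as a group were set against the repressors (E2F4 to E2F8). The mean log2 CPM of the activators minus that of the repressors was -0.60 and -0.31 in N_12 libraries, against -0.92 and -0.69 in DMSO libraries. The groups were apart by a narrow margin between N_12 replicate 1 and DMSO replicate 2. The difference between group means was 0.35, with a pooled SD between replicates of 0.18. It combined a change of 0.52 in the activators, most of it from E2F1, with one of 0.17 in the repressors, in which E2F5 lay opposite to E2F4 and E2F8. The medians of the fitted log2 fold changes were 0.36 for the activators and 0.24 for the repressors. With medians within each library in place of means the difference was 0.88. Leaving out N_12 replicate 2 gave 0.20 and leaving out N_12 replicate 1 gave 0.49. It was 0.23 without DMSO replicate 1.

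Levels were compared between genes as CPM per kb of exon, using the union of all annotated exons, which may be longer than the transcript made. On this scale E2F4 was the most abundant E2F, at 37.7 and 37.5 CPM per kb in N_12 libraries, against 27.1 and 23.7 CPM per kb in DMSO libraries. It made up 49.3% and 46.8% of the summed E2F level with N_12 and 45.3% and 42.2% with DMSO. E2F1 came next in both N_12 libraries, at 14.1% and 14.4% of the sum. In DMSO libraries it held 10.6% and 9.26%, within the range of E2F5, E2F6, E2F7 and E2F3. E2F5 was the lowest E2F per kb in N_12 replicate 2, at 3.45% of the sum (5.18% in N_12 replicate 1), against 9.77% and 9.81% in DMSO libraries. The summed level of the 8 E2F genes was 76.4 and 80.1 CPM per kb with N_12 and 59.8 and 56.1 CPM per kb with DMSO. MYBL2 averaged 30.3 CPM per kb with N_12 and 17.9 CPM per kb with DMSO, and RBL1 2.30 CPM per kb with N_12 and 1.69 CPM per kb with DMSO.

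**Figure D4:**
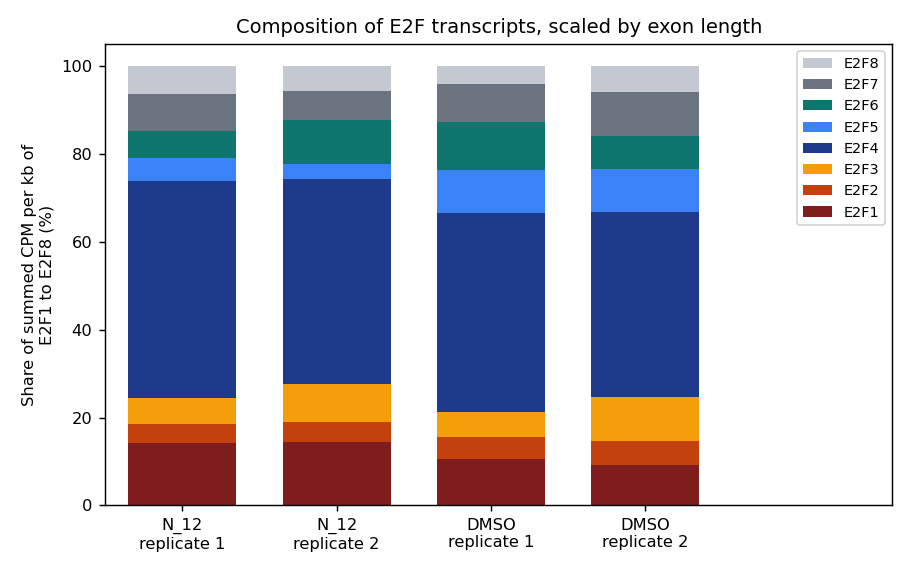
Share (%) of the summed CPM per kb of E2F1 to E2F8 held by each gene, in 2 N_12 libraries and 2 DMSO libraries. E2F4 holds 42.2% to 49.3% in every library, the band of E2F1 is wider and that of E2F5 narrower with N_12.

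The proteins that work with E2F factors came from a list of 12 genes, of which 11 were tested and edgeR called none over all genes. At an unadjusted p under 0.05 FOXM1 and TFDP1 passed, 2 of 11, against 21.8% of all tested genes. DESeq2 called FOXM1 alone (3.91% of all were called higher) and limma-voom none. The median log2 fold change of the partners, 0.27, rested on single libraries: it was 0.035 without N_12 replicate 1 and 0.36 without N_12 replicate 2. Leaving out DMSO replicate 1 gave 0.19, and leaving out DMSO replicate 2 gave 0.18. FOXM1, a factor that joins B-MYB and MuvB on mitotic genes, had 43.1 and 42.7 CPM in N_12 libraries, against 28.5 and 28.1 CPM in DMSO libraries. Its log2 fold change was 0.60 (interval 0.25 to 0.94, adjusted p = 0.0825 by edgeR and 0.00761 by DESeq2). TFDP1, the main dimer partner of the E2Fs, had 129.4 and 126.0 CPM with N_12 and 103.3 and 97.3 CPM with DMSO (log2 fold change 0.35, interval 0.05 to 0.65). The pocket protein genes RB1 (0.16, interval -0.32 to 0.65) and RBL2 (-0.067, interval -0.41 to 0.28) had log2 fold changes nearer to 0 than that of RBL1, and the differences between them were not tested. Among MuvB subunits the log2 fold changes were 0.44 for LIN9, 0.41 for LIN52, 0.28 for LIN54, 0.27 for LIN37 and -0.051 for RBBP4. The dimer partner TFDP2 (-0.098) and the germline relative of MYBL2, MYBL1 (-0.092), lay slightly below 0. TFDP3 had 0 counts in all libraries but DMSO replicate 1, which had 2.

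Of 60 G1/S genes that E2F factors control, edgeR called 2 higher (0.822% of all tested genes were) and none lower (1.43%). Their median log2 fold change was 0.22, and 46 lay above 0, against 51% of all tested genes. An unadjusted p under 0.05 by edgeR was reached by 19 of the 60, against 21.8% of all. Both N_12 libraries stood above both DMSO libraries for 31 of the 60 (27.9% of all) and below for 3 (26.8%). Both called genes encode subunits of the replicative helicase. MCM5 had 93.1 and 102.3 CPM in N_12 libraries, against 55.4 and 52.5 CPM in DMSO libraries (log2 fold change 0.86, SE 0.14, adjusted p = 0.0270 by edgeR). MCM3 had 119.5 and 134.4 CPM in N_12 libraries, against 76.2 and 77.9 CPM in DMSO libraries (log2 fold change 0.72, SE 0.14, adjusted p = 0.0425 by edgeR). Both lost their calls whichever library was left out (adjusted p from 0.0632 to 0.163 by edgeR). The median of the list was 0.18 without N_12 replicate 1 and 0.28 without N_12 replicate 2. It was 0.24 without DMSO replicate 1 and 0.23 without DMSO replicate 2. DESeq2 called 13 of the 60 higher, against 3.91% of all tested genes, and limma-voom 0.

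Of 40 genes of G2 and mitosis driven by B-MYB, MuvB and FOXM1, the main edgeR model called none. An unadjusted p under 0.05 was reached by 8 of the 40, a share close to the 21.8% of all tested genes. Of the 40, 32 lay above 0, against 51% of all, and the median was 0.25. Those with the smallest p were CKS2, a small subunit of cyclin-dependent kinases, and PLK1, a mitotic kinase. CKS2 had 139.7 and 141.5 CPM in N_12 libraries, against 232.0 and 202.1 CPM in DMSO libraries (log2 fold change -0.63, adjusted p = 0.0590 by edgeR). Its call depended on the setting. The log2 fold change of CKS2 was -0.35 after GC and length correction (adjusted p = 0.229 by edgeR). It was called lower by DESeq2 (adjusted p = 0.00148). So it was by edgeR with the replicate block (adjusted p = 0.0290) and with a filter at a mean of 5 CPM (adjusted p = 0.0456). PLK1 had 161.7 and 162.2 CPM with N_12 and 124.6 and 114.3 CPM with DMSO (log2 fold change 0.44, adjusted p = 0.115 by edgeR). DESeq2 called 1 member higher (3.91% of all) and 1 lower (4.78% of all), and limma-voom none. The median was 0.096 without DMSO replicate 1 and 0.38 without DMSO replicate 2. In bulk libraries a larger share of cells in a cycle phase and more RNA per cell cannot be told apart.

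**Figure D5:**
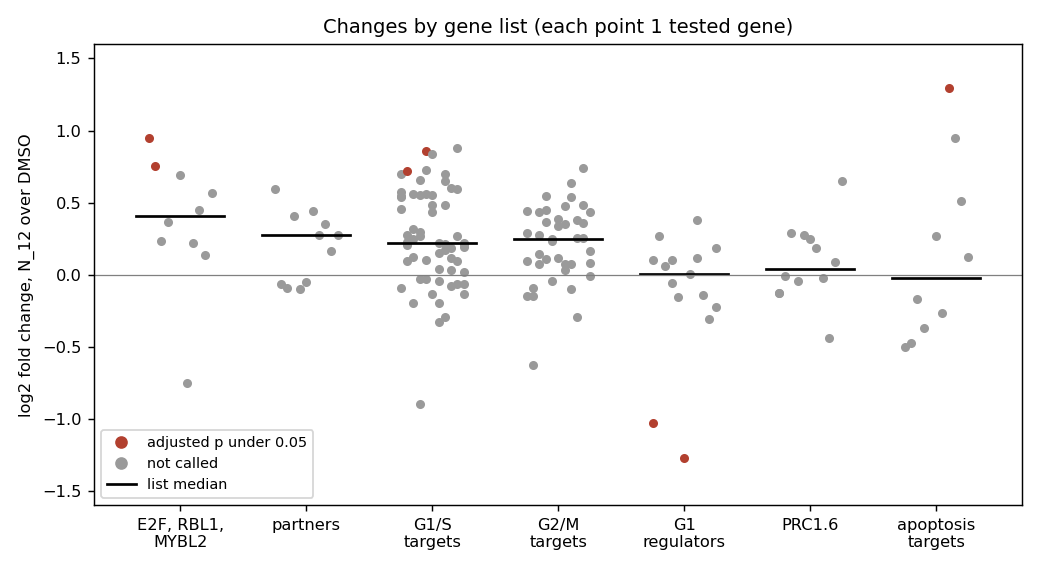
Log2 fold change, N_12 over DMSO, of every tested gene in each list, with called genes in red and list medians as lines. The medians are 0.41 for the 10 genes, 0.27 for partners, 0.22 for G1/S targets and 0.25 for G2/M targets, and lie between -0.021 and 0.037 for the G1 regulators, the E2F6 partners and the apoptosis targets. The partners' median was 0.035 without N_12 replicate 1.

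Upstream of the pocket proteins, 2 of 15 tested G1 regulators were called lower, against 1.43% of all tested genes, and none higher (median 0.0034). At an unadjusted p under 0.05 by edgeR 2 of the 15 passed, below the 21.8% of all tested genes. Both called genes encode inhibitors of cyclin-dependent kinases. CDKN1C, the gene of p57, had 24.6 and 31.9 CPM in N_12 libraries, against 71.0 and 65.5 CPM in DMSO libraries (log2 fold change -1.27, SE 0.18, adjusted p = 0.0179 by edgeR). CDKN2D, the gene of p19, had 26.6 and 34.9 CPM in N_12 libraries, against 67.4 and 58.1 CPM in DMSO libraries (log2 fold change -1.03, SE 0.19, adjusted p = 0.0369 by edgeR). Neither was called without N_12 replicate 1 or without N_12 replicate 2, settings under which no gene of the whole table was called. CDKN2D was also not called when DMSO replicate 1 was omitted (log2 fold change -0.92) or with limma-voom (adjusted p = 0.0660). Nor did edgeR call CDKN2D without robust dispersions (adjusted p = 0.071). With GC and length correction plus the replicate block CDKN2D was not called either (adjusted p = 0.0637 by edgeR).

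Among 12 partners of E2F6 in its Polycomb complex edgeR called none (median 0.037). At an unadjusted p under 0.05, 2 of the 12 passed, below the 21.8% of all tested genes. DESeq2 called 1 higher (3.91% of all) and limma-voom none. The members with the smallest p were L3MBTL2 (0.65, adjusted p = 0.0892 by edgeR), a chromatin reader, and RYBP (-0.44, adjusted p = 0.195 by edgeR), a shared Polycomb subunit. Of 10 apoptosis genes that E2F1 can induce, 1 was called higher, against 0.822% of all tested genes, and none lower. The list lay evenly about 0, with 5 genes above it and a median of -0.021. An unadjusted p under 0.05 by edgeR was reached by 4 of the 10, on both sides of 0, against 21.8% of all. The called gene was BBC3, which encodes PUMA and is also a p53 target. BBC3 had 46.0 and 61.3 CPM in N_12 libraries, against 23.5 and 20.3 CPM in DMSO libraries (log2 fold change 1.29, SE 0.19, adjusted p = 0.0212 by edgeR). It kept its call without either DMSO library and lost it without either N_12 library (log2 fold change 1.47 and 1.07). BBC3 was also not called with limma-voom (adjusted p = 0.0504). GC and length correction plus the replicate block ended the call too (adjusted p = 0.0553 by edgeR).

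The tested genes closest to E2F1 in their profile over the 4 libraries, by Euclidean distance of centred log2 CPM among 11216 genes whose mean reached 5 CPM, were CDC42EP2, MYBBP1A, PHLDA2, ZNF786 and CAP2 (distances 0.073 to 0.12). Those closest to MYBL2 were SLC6A17, SH3BP4, PROSER2, LRP8 and SIRPA (0.035 to 0.060). None of these 10 belongs to the lists of E2F or B-MYB targets used here. With only 4 libraries many genes share a profile.

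Total counts were 41717938 and 39865327 in N_12 libraries, against 31120459 and 29769568 in DMSO libraries. The 10 genes together took 17076 and 17018 counts with N_12 and 9505 and 8830 counts with DMSO. Thinning all libraries to the lowest total left E2F1 at 0.95 and MYBL2 at 0.76. Epithelial markers were present, apart from VIL1 with at most 4 counts. Summed over 9 genes they reached 3510 and 3860 CPM with N_12, against 4940 and 4360 CPM with DMSO, sums carried mostly by KRT8 and KRT19. Of the 8 tested, 1, ELF3, was called lower, against 1.43% of all tested genes. An unadjusted p under 0.05 by edgeR was reached by 6 of the 8, against 21.8% of all tested genes. Among these 6, CDX2 lay on the higher side (log2 fold change 0.62). The median of the epithelial list was -0.39, and its part in the values of the E2F family was not tested. Markers of leukocytes (35 to 49.1 CPM over 6 genes, mostly CD68, with PTPRC and CD3E at 0) and endothelium (0.88 to 2.45 CPM over 5 genes) were low. Of the 7 fibroblast markers (55.5 to 65.0 CPM, mostly COL1A1), COL1A2, DCN and LUM were at 0.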

How the data were processed

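Per the labels, 4 mRNA libraries of HCT116 cells were made, each starting from 1.4 ug of total RNA. The authors deposited whole-number counts per gene, not normalized, keyed by human Ensembl identifiers. Aligner, counter and strandedness: not given in the sources used here. Builds in the submitters' processing notes (GRCm38, mm10) are of mouse, so coordinates come only from RefSeq (GRCh38.p14). Symbols were found for 20148 of 20263 identifiers, and exon lengths, overlaps and GC content came from GENCODE release 29. Groups and replicate numbers came from the sample titles.

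The analysis used edgeR 4.0.16 under R 4.3.3, with TMM scaling, the edgeR expression filter, a quasi-likelihood model with robust dispersions and no replicate term, and Benjamini-Hochberg adjustment over all tested genes, two-sided. Log2 CPM used a prior count of 2. Standard errors came from the fold change and its F statistic. Alternatives were other scalings and filters, non-robust dispersions, DESeq2 1.42.0, limma-voom (limma 3.58.1), a replicate block, thinned counts, smooth GC and length offsets (mgcv 1.9.3) and leaving out each library. The procedure was tested on simulated data. The ratio of chi-square to its degrees of freedom between replicates was 57.2 for N_12 and 36.5 for DMSO, above sampling noise, so all 4 libraries were counted separately.

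The 10 genes and the lists were chosen with earlier results of these data known. All 10 genes and all partners were named; from other lists up to 6 called genes, or the 2 with the smallest p. CKS1B and CDKN2A each stand in 2 lists.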

Additional observations from a re-analysis of the deposited data

How the results depend on the processing

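The main model called 317 genes in all. The count was 131 without robust dispersions, 131 with limma-voom, 1225 with DESeq2, 963 with the replicate block, 924 with GC and length correction and 50 with that correction and the replicate block together. With 1 library left out it ranged from 0 to 451. The count was 0 without N_12 replicate 1 and without N_12 replicate 2, where 2855 and 2763 genes had an unadjusted p under 0.05. Of the 10 genes 2 were called. The count was 4 with DESeq2 and with GC and length correction. It was 0 without robust dispersions, with limma-voom, and with GC and length correction plus the replicate block. At an unadjusted p under 0.05, 5 of the 10 passed without robust dispersions, against 3012 of all 14105 tested genes. With limma-voom 5 passed, against 3036 of 14105. With GC and length correction plus the replicate block 7 passed, against 3978 of 14089. The calls of E2F1 and MYBL2 also ended with any 1 library left out. The replicate block alone called 3. The numbers were not taken as pairs because the labels do not say that a number marks a shared culture or day. Deviations of same-numbered libraries had a correlation of -0.09 over genes. The activator minus repressor difference of 0.35 became 0.88 with medians and 0.51 without E2F7 and E2F8, and ranged from 0.20 to 0.49 with 1 library left out. The other alternatives gave 0.34 to 0.35. E2F6 ranged from -0.19 to 0.61 with 1 library left out (-0.059 without DMSO replicate 2, -0.19 without N_12 replicate 2), and E2F7 from -0.029 (without N_12 replicate 1) to 0.26; the other 8 genes kept their direction under all 15 alternatives. The cause of these shifts was not tested. There were only 2 libraries per group, and how far replicate spread or depth limits these comparisons was not tested.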

Other observations

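Across the whole table, genes whose promoter window held either form of the E2F letters differed little in their medians from the rest. The 3121 tested genes with a match had a median log2 fold change of 0.025 (0.865% called higher, 0.897% lower), and the 8028 without one had a median of 0.0090 (0.772% called higher, 1.54% lower). Of the G1/S list 38 of 53 windows held a match (71.7%), and of the G2/M list 13 of 35 (37.1%), against 28% of tested genes. The CHR letters TTTGAA or TTCGAA, which the MuvB complex reads, stood in 27 of the 35 G2/M windows (77.1%), in 3 of the 53 G1/S windows (5.66%) and in 11.1% of windows of tested genes. Among the 8 first-listed windows of the E2F family, RBL1 and MYBL2, that of E2F3 alone held them. The MYBL2 window held neither the full E2F consensus nor the CHR letters, and no CCAAT box, which E2F1, E2F3 and E2F7 had.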
